A study of Mus musculus with 38 samples.

Results

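The matrix metalloproteinases and their inhibitors were followed through 38 RNA libraries of mouse lung adenocarcinoma organoids, tumour cells kept as small clusters in Matrigel. The 9 genes were chosen by name, 6 metalloproteinases (Mmp7, Mmp9, Mmp10, Mmp13, Mmp14 and Mmp15) and 3 tissue inhibitors of metalloproteinases (Timp1, Timp2 and Timp3), from the 55502 gene IDs of the 3 count tables. Each organoid line came from 1 tumour of a mouse of Mixed 129/B6 strain, and all lines carried KrasFSF-G12D, p53frt and Rosa-FSF-CreERT2, the last a Cre recombinase that acts once 4-hydroxytamoxifen (4-OHT) is present. Double-floxed organoids also carried Foxa1flox and Foxa2flox and gave 5 libraries after 2 uM 4-OHT for 72 hours and 5 after ethanol vehicle. Replicates 1 and 4 were of line 1027B, 2 and 5 of 1027D, and 3 of 1292B. Foxa1-floxed organoids gave 6 libraries with 4-OHT and 6 with vehicle, from lines 1552A (replicates 1 and 2), 1552B (3 and 4) and 1552C (5 and 6). Foxa2-floxed organoids gave 4 with 4-OHT and 4 with vehicle, from lines 1267B (replicates 1 and 2) and 1526C (3 and 4). In a further experiment, line 1027B carried a hairpin against Nkx2-1 (shNKX2-1) or a scrambled one (shScramble), with 4-OHT or vehicle and 2 libraries in each of the 4 groups. No line without a floxed Foxa allele was analysed here, so gene loss and any action of 4-OHT or of Cre itself cannot be told apart. A line stands for 1 tumour, however many libraries it gave. The 4-OHT tests of floxed organoids took repeat libraries of a line as replicates, so their p-values do not treat the tumour as the unit. Whether hairpin libraries of 1 group were grown as separate cultures is not stated in the labels, so those p-values measure only the spread between these libraries.

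Matrix metalloproteinases are zinc-dependent endopeptidases that are made as inactive proenzymes and cut collagens, other matrix proteins and cell surface proteins. Most are secreted, while MMP14 and MMP15 sit in the plasma membrane, where MMP14 bound to TIMP2 takes part in activating pro-MMP2. TIMPs occupy the active site of these enzymes, and TIMP3 stays bound to the matrix. In a whole lung tumour much of this supply comes from fibroblasts, macrophages and neutrophils. Foxa1 and Foxa2 are forkhead transcription factors of the lung epithelium, and Nkx2-1 is its lineage factor.

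Library totals were 18263673 to 31956057 counts in the double-floxed table, 18471187 to 33197038 in the single-floxed table and 13589826 to 16262459 in the hairpin table. Levels are given in CPM, a count relative to the size of its library, scaled within each table, and a gene is said to be called, to rise or to fall where edgeR's quasi-likelihood test gave a p under 0.05 after Benjamini-Hochberg adjustment across the genes tested. Foxa2 fell 22.4-fold with 4-OHT in double-floxed and 34.6-fold in Foxa2-floxed organoids, and Foxa1 fell 3.47-fold in double-floxed and 3.78-fold in Foxa1-floxed organoids. The Foxa1 call in double-floxed organoids was lost without any 1 of the 3 lines (adjusted p = 0.062 to 0.283). In the hairpin experiment Foxa2 fell with 4-OHT in shNKX2-1 (log2 change -6.04) and shScramble organoids (-5.09), while Foxa1 was not called in shNKX2-1 (-0.56, adjusted p = 0.236) or shScramble organoids (-0.49, adjusted p = 0.469). Nkx2-1 had 181 and 207 CPM in shNKX2-1 4-OHT and 350 and 280 CPM in shNKX2-1 vehicle libraries, against 359 and 408 CPM in shScramble 4-OHT and 424 and 428 CPM in shScramble vehicle libraries. That difference between hairpins was not called (adjusted p = 0.0763 with 4-OHT and 0.755 with vehicle). The summed level of 6 epithelial markers was 5256 to 18129 CPM. Summed levels were at most 5.06 CPM for 9 fibroblast markers, with Lum at 0 in every library, and at most 8.90 CPM for 6 endothelial markers. Leukocyte markers (8 genes) summed to 23.5 to 232 CPM, led by Cd14 in every group, while Adgre1 and Tyrobp were at 0 in both double-floxed groups.

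Levels of the 9 genes covered several orders of magnitude. Timp2 (106 to 472 CPM) and Timp3 (44.6 to 1130 CPM) were abundant in every library. Mmp15 ran between 0.626 and 319 CPM and Timp1 between 0.908 and 14.2 CPM. Mmp14 spanned 0 to 151 CPM, Mmp13 0 to 3591 CPM and Mmp10 0 to 181 CPM. Mmp9 never exceeded 2.08 CPM and was at 0 in 22 libraries, and Mmp7, the epithelial metalloproteinase matrilysin, held 28 counts over all 38 libraries, 25 of them in line 1267B. Per kilobase of exon, mean levels in double-floxed vehicle libraries were 39.5 for Timp3, 37.5 for Timp2, 10.4 for Mmp15, 6.20 for Timp1 and 1.21 CPM for Mmp14. In Foxa1-floxed vehicle libraries they were 48.8 for Timp2, 30.8 for Mmp15, 17.5 for Timp3, 13 for Mmp14 and 1.38 CPM for Timp1. The filter on low counts passed 8 members in the double-floxed table (all but Mmp7), 7 in the single-floxed table (all but Mmp7 and Mmp9) and 5 in the hairpin table (Mmp13, Mmp15, Timp1, Timp2 and Timp3).

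**Figure D1:**
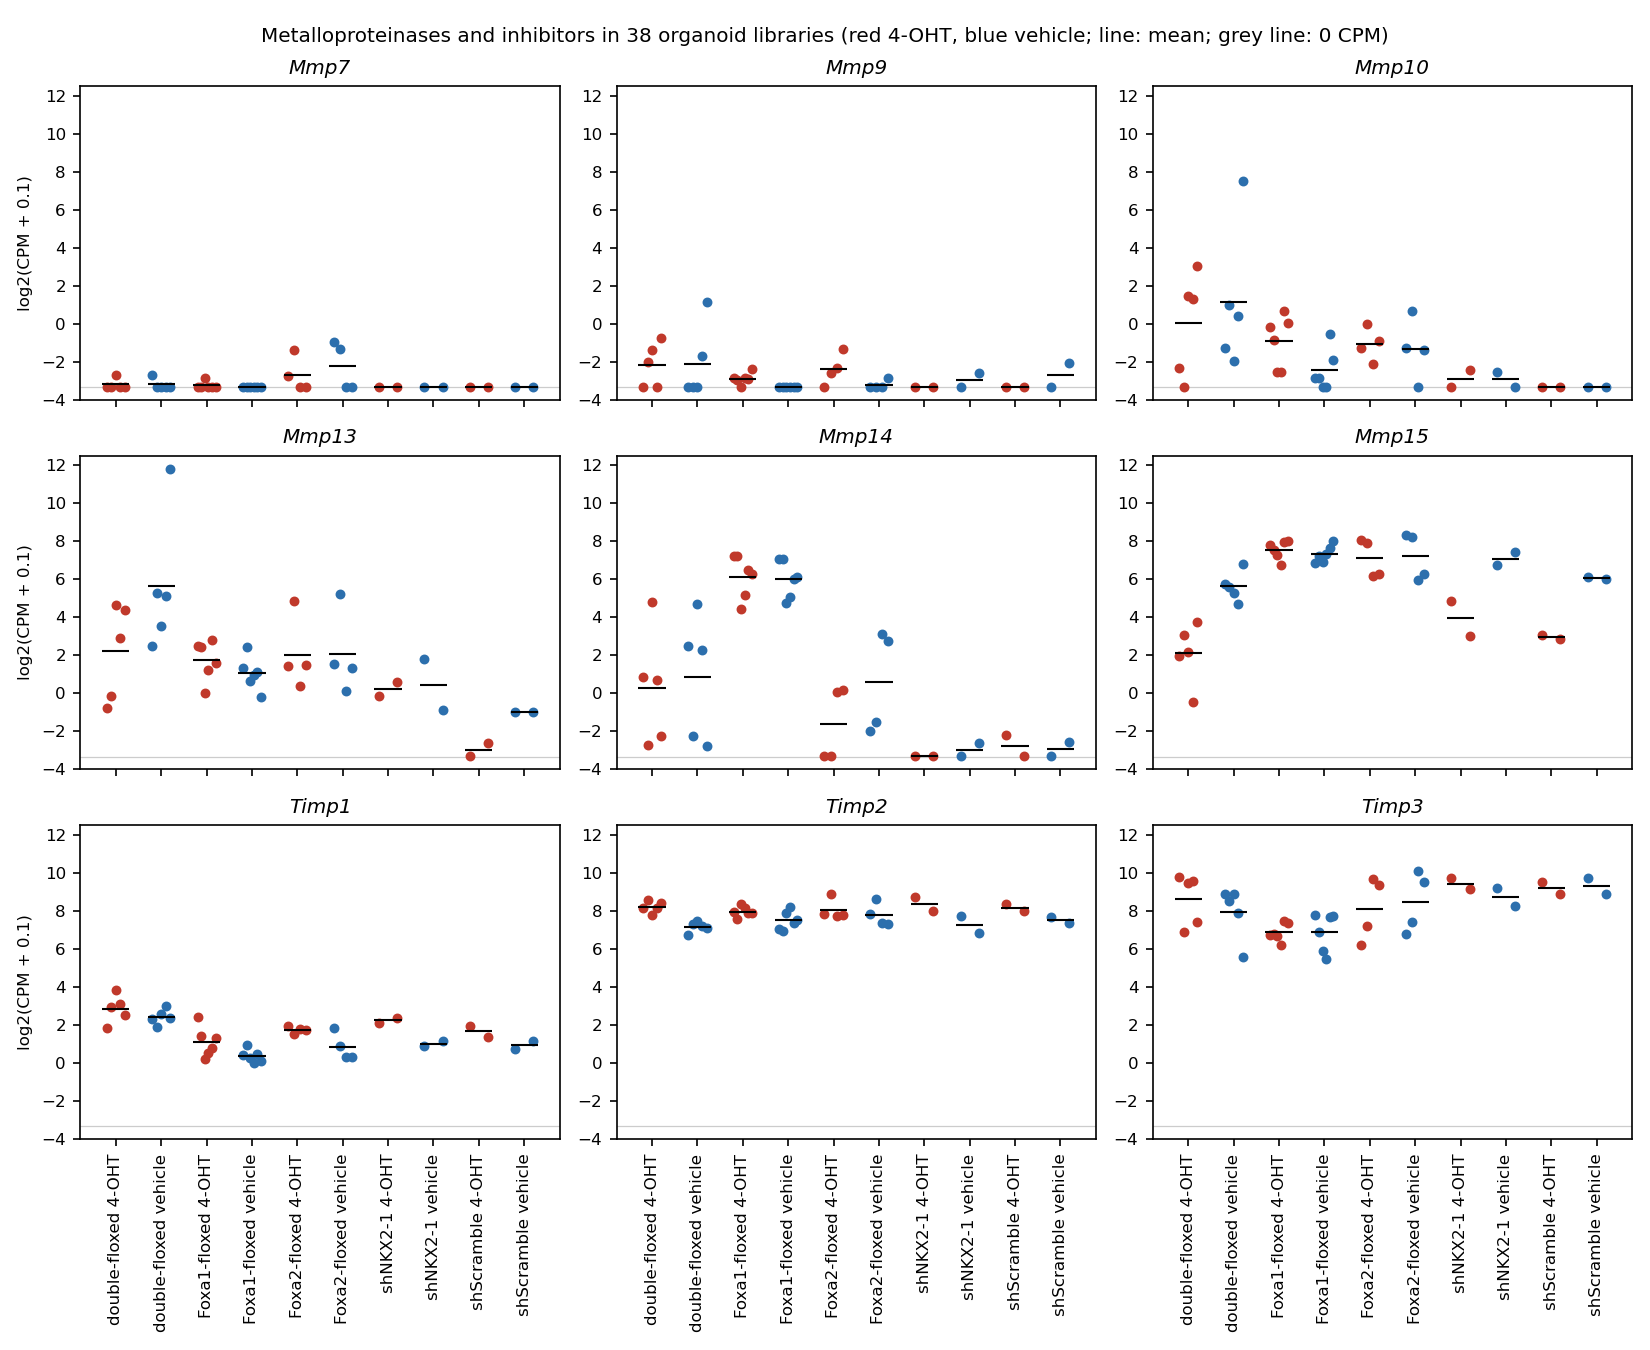
Each panel plots log2(CPM + 0.1) of 1 gene in the 38 libraries by group, 4-OHT in red and vehicle in blue, with a black line at the mean of the log2 values. Mmp15 separates the double-floxed and hairpin 4-OHT libraries from their vehicle libraries, Timp2 stays between 106 and 472 CPM, and Mmp7 lies at or near 0 throughout.

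In double-floxed organoids 2 of the 8 members tested were called, Mmp15 lower and Timp2 higher with 4-OHT, where 3.90% of 15198 genes were called, 1.91% lower and 1.99% higher. The same 2 genes were those whose 4-OHT and vehicle libraries did not overlap, a pattern seen in 3.54% of genes. In Foxa1-floxed organoids none of 7 was called, where 2 of 16887 genes (0.0118%) passed and 1928 had an unadjusted p under 0.05. DESeq2 called 1 of the members there, Mmp10, and 1.46% of genes. In Foxa2-floxed organoids 1 of 7, Mmp14, was called lower, against 3.43% of genes called in all and 1.55% called lower. None had 4-OHT libraries apart from all vehicle libraries, which held for 2.66% of genes there and 0.178% in Foxa1-floxed organoids. In both the shNKX2-1 and the shScramble organoids, 1 of 5, Mmp15, was called lower with 4-OHT, where 6.35% and 4.33% of 14465 genes were called and 3.63% and 2.67% were called lower. The median log2 change of the members tested was -0.87 in double-floxed, 0.46 in Foxa1-floxed and -0.10 in Foxa2-floxed organoids, against 0.02, 0.01 and -0.01 over all genes tested. In double-floxed organoids the 3 inhibitors were fitted higher and the metalloproteinases tested were fitted lower. Mmp10, next to that median at -0.97, had a fitted change of 1.41 without vehicle replicate 5. Single lines did not all follow these fits. In line 1292B, with 1 library of each treatment, Mmp9, Mmp10, Mmp13 and Mmp14 were higher with 4-OHT. Timp3 was lower with 4-OHT in line 1027D (145 against 207 CPM) and Timp1 in line 1027B (6.05 against 6.45 CPM). Without line 1027B the fitted changes of Mmp14 and Timp3 changed sign.

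Mmp15 (ENSMUSG00000031790, GRCm38 chromosome 8, 95352268 to 95375080, plus strand) encodes a membrane-type metalloproteinase. In the 5 double-floxed 4-OHT libraries it had 3.77, 8.28, 4.51, 0.626 and 13.2 CPM, against 53.9, 48.9, 38.7, 26.2 and 112 CPM in the vehicle libraries, in replicate order. Every 4-OHT library lay below every vehicle library. The fitted log2 change was -3.44 ± 0.54 (SE, adjusted p = 0.0135), a 10.9-fold fall. Here and below, each SE is the size of the log2 change divided by the square root of the test's F value. It is derived from the test and is not a separate measure of spread. The mean with 4-OHT was 2.20 CPM in line 1027B and 10.7 CPM in line 1027D, against 40.1 and 80.5 CPM with vehicle in those lines, and line 1292B had 1 library of each treatment. The call was lost without line 1027D (log2 change -3.80, adjusted p = 0.208) and without the block for line (-3.20, adjusted p = 0.0748). Leukocyte markers summed to 37.9 to 90.3 CPM in the 4-OHT and 58.0 to 232 CPM in the vehicle libraries. Cd14 led these sums, with means of 45.8 CPM with 4-OHT and 112 CPM with vehicle. Of the 4 leukocyte markers tested, 3 were fitted higher with 4-OHT and none was called. The part of these markers in the fall of Mmp15 was not tested. In bulk RNA, fewer cells with the transcript and less transcript per cell cannot be told apart.

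Mmp15 was high in the single-floxed lines under either treatment. Foxa1-floxed organoids had 223, 186, 157, 109, 251 and 259 CPM with 4-OHT, against 117, 152, 118, 158, 198 and 254 CPM with vehicle (log2 change 0.24 ± 0.13 SE, adjusted p = 0.513). Foxa2-floxed organoids had 273, 236, 70.9 and 76.6 CPM with 4-OHT, against 319, 297, 62.9 and 78.2 CPM with vehicle (-0.11 ± 0.16 SE, adjusted p = 0.879). In both genotypes the treatments overlapped, and in Foxa2-floxed organoids the lines were apart, with 1267B above 1526C. The change in double-floxed organoids was lower than that in Foxa1-floxed organoids by a log2 difference of -3.62 ± 0.33 (SE, adjusted p = 0.00393), tested on counts summed per line, where 1.54% of 19085 genes were called, 1.1% as lower. It was lower than that in Foxa2-floxed organoids by -3.26 ± 0.37 (SE, adjusted p = 0.0346), where 0.194% were called, 0.157% as lower. Mmp15 was the 1 member called in either comparison. The epithelial keratins Krt8 and Krt18 were also called against Foxa1-floxed organoids, with log2 differences of 0.95 (adjusted p = 0.0415) and 0.73 (0.0366), calls lost without line 1027B, line 1292B or any 1 Foxa1-floxed line (0.0507 to 0.144). The difference from Foxa2-floxed organoids was no longer called without line 1267B (adjusted p = 0.0768) or without line 1526C (0.173), and neither difference was called without the block for line. Between Foxa2-floxed and Foxa1-floxed effects edgeR called no gene (0%), although 733 had an unadjusted p under 0.05.

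The fall of Mmp15 was also present in the hairpin experiment, a separate set of libraries of line 1027B. With shNKX2-1 it had 29.2 and 8.02 CPM after 4-OHT, against 109 and 170 CPM with vehicle (log2 change -2.90 ± 0.54 SE, adjusted p = 0.0192). With shScramble it had 8.32 and 7.23 CPM after 4-OHT, against 68.7 and 64.8 CPM with vehicle (-3.10 ± 0.55 SE, adjusted p = 0.0180). In both pairs each 4-OHT library lay below each vehicle library. At 2 against 2 this separation is common, found in 51% of genes in shNKX2-1 and 61.3% in shScramble organoids. The fall was not called in shScramble organoids without any 1 of their 4 libraries (adjusted p = 0.0885 to 0.186), nor in shNKX2-1 organoids without either vehicle library (0.0544 and 0.112). The log2 change in shNKX2-1 organoids was -4.15 without 4-OHT replicate 1 and -2.27 without 4-OHT replicate 2, fits that leave 1 library in that group.

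Between hairpins, shNKX2-1 libraries held more Mmp15 than shScramble libraries under vehicle, without overlap, by a log2 difference of 1.06 ± 0.50 (SE, adjusted p = 0.710). Of 14465 genes, 43.9% had non-overlapping libraries in that comparison and 0.235% were called. With 4-OHT the difference was 1.26 ± 0.52 (SE, adjusted p = 0.330), where 1.58% of genes were called. No member was called in either. The 4-OHT effect on Mmp15 did not pass as different between the hairpins (log2 difference 0.20 ± 0.71 SE, adjusted p = 0.946). In that interaction edgeR called no gene (0%), 782 genes had an unadjusted p under 0.05 and DESeq2 called 89.

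**Figure D2:**
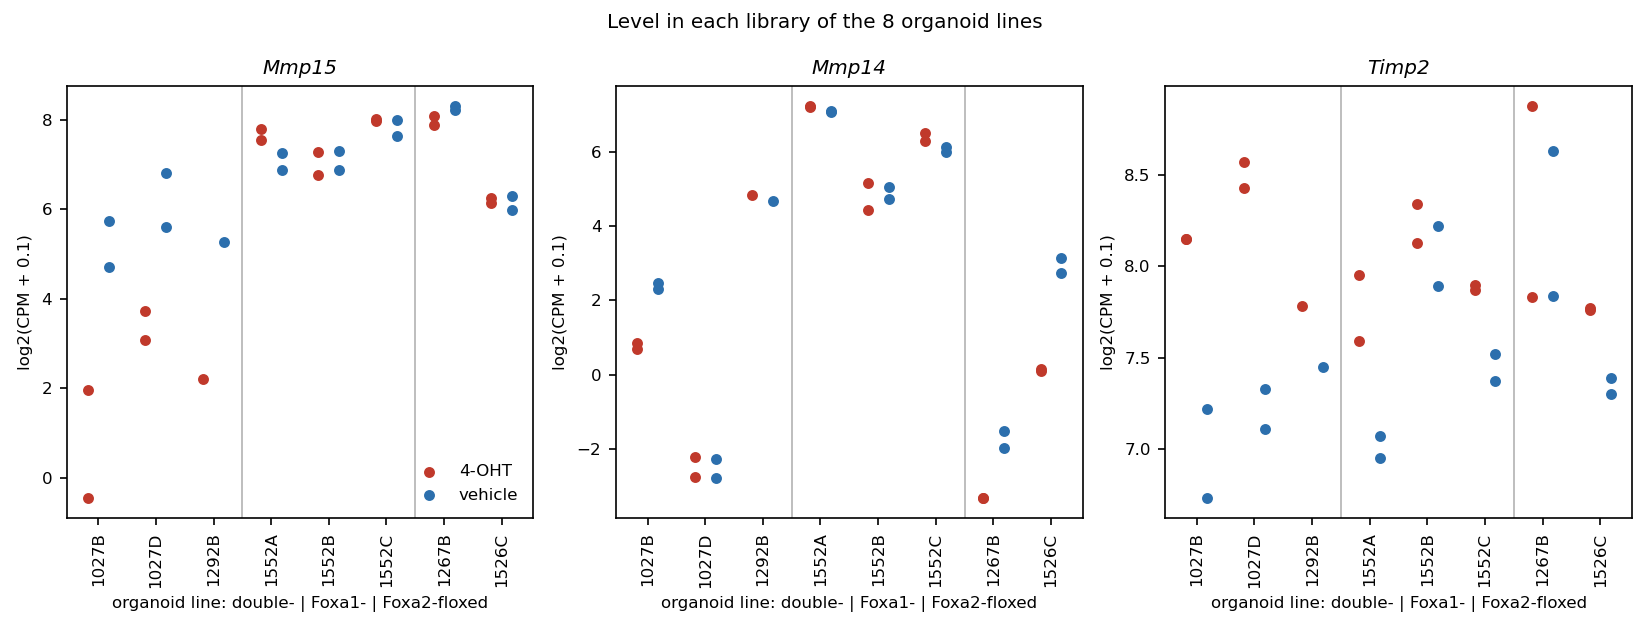
Panels plot log2(CPM + 0.1) of Mmp15, Mmp14 and Timp2 in each library of the 8 lines, 4-OHT in red left of vehicle in blue. Mmp15 is lower with 4-OHT in all 3 double-floxed lines. Mmp14 differs more between lines of a genotype than between treatments, and in both Foxa2-floxed lines it is also lower with 4-OHT.

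Mmp14 (ENSMUSG00000000957, chromosome 14, 54431612 to 54445364, plus strand) encodes the membrane-type enzyme that works with TIMP2 on pro-MMP2. Foxa2-floxed 4-OHT libraries had 0, 0, 0.964 and 1.02 CPM, against 0.155, 0.252, 8.74 and 6.57 CPM in vehicle libraries. Within each line the 4-OHT libraries were the lower ones, while across lines the groups overlapped. The fitted log2 change was -3.02 ± 0.27 (SE, adjusted p = 8.77e-06), a test that took repeat libraries of these 2 lines as replicates. In line 1526C, which carries nearly all of the counts, mean levels were 0.993 CPM with 4-OHT and 7.65 CPM with vehicle. Line 1267B held 0 counts in its 4-OHT libraries, which allows up to 0.058 CPM, and 9 counts in its vehicle libraries. Neutrophil markers (7 genes) summed to 25.4 to 77.8 CPM in Foxa2-floxed 4-OHT and 1.60 to 20.5 CPM in vehicle libraries. These sums were mostly Ly6g, with means of 38.1 CPM with 4-OHT and 6.97 CPM with vehicle. Ly6g was called higher (log2 change 2.85, adjusted p = 0.0103, or 0.432 without line 1526C and 0.12 with counts summed per line), and Csf3r and Elane were at 0 in both. The part of these markers in the Mmp14 call was not tested. The call was lost without line 1526C (adjusted p = 0.0970) and without the block for line (adjusted p = 1).

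In the other genotypes Mmp14 levels followed the line rather than the treatment. Foxa1-floxed organoids had 151, 148, 21.6, 35.5, 91.0 and 77.9 CPM with 4-OHT, against 134, 137, 26.4, 33.3, 63.3 and 70.5 CPM with vehicle, which gave the highest group means of the series (log2 change 0.14 ± 0.13 SE, adjusted p = 0.723). Double-floxed organoids had 1.71, 0.0496, 28.3, 1.52 and 0.115 CPM with 4-OHT, against 5.43, 0.109, 25.5, 4.81 and 0.0452 CPM with vehicle (-0.78 ± 0.43 SE, adjusted p = 0.353). Line 1292B stood highest and 1027D lowest under both treatments. In line 1027B alone both 4-OHT libraries were below both vehicle libraries (line means 1.62 and 5.12 CPM). The hairpin libraries of that same line held 0 to 0.122 CPM of Mmp14 in all 4 groups, on the scale of their own table.

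Differences in the Mmp14 effect between genotypes depended on how libraries were combined. The Foxa2-floxed effect stood below the Foxa1-floxed effect by a log2 difference of -3.19 ± 0.62 (SE, adjusted p = 0.817, unadjusted p = 0.000766) on counts summed per line, and was called with libraries unsummed (adjusted p = 0.000269) and by DESeq2 (0.00416). The double-floxed effect stood above the Foxa2-floxed effect by 2.41 ± 0.66 (SE, adjusted p = 0.294), and was called with libraries unsummed (0.0164) and by DESeq2 (0.0224).

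Mmp13 (ENSMUSG00000050578, chromosome 9, 7272514 to 7283331, plus strand) encodes a collagenase and Mmp10 (ENSMUSG00000047562, chromosome 9, 7502352 to 7510240, plus strand) a stromelysin. Both belong to a cluster of metalloproteinase genes on chromosome 9 that also holds Mmp7 and Mmp3, a second stromelysin. Reads of Mmp10 and Mmp3 can be hard to tell apart, because the genes are close paralogs and no source used here says how ambiguous reads were counted. The stretches of 250 bases before the RefSeq start sites (GRCm38.p6, plus strand) of Mmp13 (chr9:7272264-7272513), Mmp10 (chr9:7502092-7502341) and Mmp3 (chr9:7445572-7445821) are shown because these 3 genes reached their highest level in the same library. Capitals mark 2 patterns searched on both strands, TGANTCA, bound by AP-1 factors, and TGTTTAC, bound by forkhead factors, which reads GTAAACA on the plus strand of Mmp10.
Mmp13: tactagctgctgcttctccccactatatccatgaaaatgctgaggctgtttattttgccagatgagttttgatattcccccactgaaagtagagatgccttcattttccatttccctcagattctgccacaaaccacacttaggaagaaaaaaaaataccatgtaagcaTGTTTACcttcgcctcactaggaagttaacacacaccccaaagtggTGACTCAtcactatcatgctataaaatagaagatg
Mmp10: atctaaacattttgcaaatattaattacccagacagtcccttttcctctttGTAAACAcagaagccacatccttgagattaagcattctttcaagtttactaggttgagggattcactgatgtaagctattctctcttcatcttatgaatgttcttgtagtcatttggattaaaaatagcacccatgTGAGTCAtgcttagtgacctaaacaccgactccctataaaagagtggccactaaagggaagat
Mmp3: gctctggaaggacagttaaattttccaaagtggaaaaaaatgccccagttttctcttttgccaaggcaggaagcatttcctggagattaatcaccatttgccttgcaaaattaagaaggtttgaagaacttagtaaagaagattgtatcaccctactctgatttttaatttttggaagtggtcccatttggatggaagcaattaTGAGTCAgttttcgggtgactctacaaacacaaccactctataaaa
The AP-1 letters stood 35 to 29 bases before the start in Mmp13, 63 to 57 in Mmp10 and 46 to 40 in Mmp3, and also 63 to 57 in Mmp7. The forkhead letters stood 81 to 75 bases before the start in Mmp13 and 199 to 193 in Mmp10. Among the 8 members with a promoter in the table, 3 held the AP-1 and 2 the forkhead letters, whereas 6.75% and 3.17% of 32851 promoters of that length held them. A match of letters does not show binding.

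Mmp13 in double-floxed libraries was 0.489, 0.794, 25.0, 7.42 and 20.9 CPM with 4-OHT, against 5.59, 39.0, 11.6, 35.0 and 3591 CPM with vehicle. Vehicle replicate 5, of line 1027D, stood far above all other libraries of the series, and the remaining groups overlapped. The fitted log2 change of -3.63 ± 2.18 (SE, adjusted p = 0.403) was not called. Mmp10 was 0.0979, 0, 2.65, 2.37 and 8.17 CPM with 4-OHT, against 0.316, 1.85, 0.159, 1.24 and 181 CPM with vehicle, and its highest value came from the same library (log2 change -0.97 ± 2.26 SE, adjusted p = 0.877). Without that library the fitted change of Mmp10 was 1.41. Mmp3 reached 29.1 CPM there and at most 0.403 CPM in the other 9 double-floxed libraries, and Mmp9, the gelatinase B gene, had its series maximum of 2.08 CPM there. The same library held 694 CPM of Lcn2, whose lipocalin binds MMP9, while the remaining 4 vehicle libraries had 3.48 to 29.3 CPM.

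**Figure D3:**
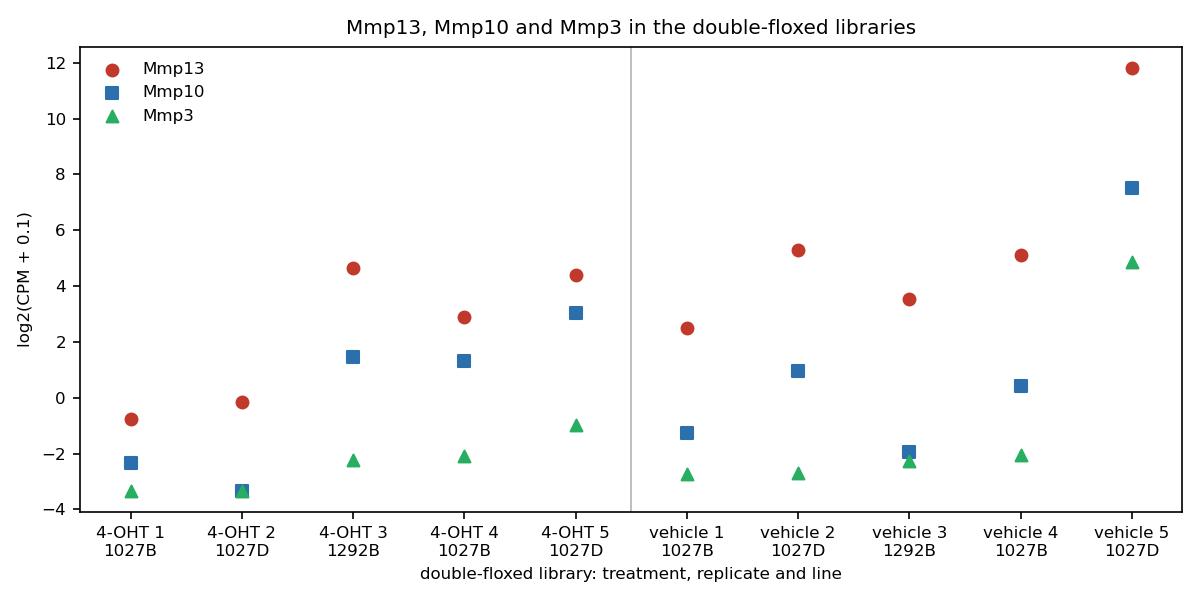
Log2(CPM + 0.1) of Mmp13, Mmp10 and Mmp3 is plotted for the 10 double-floxed libraries, 4-OHT left of the line and vehicle right of it. All 3 genes peak in vehicle replicate 5 of line 1027D, at 3591, 181 and 29.1 CPM.

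Library titles begin with a number, and lines 1027B, 1027D and 1267B each supplied 1 library per treatment under 17699 and 1 under 17992. In all 6 such pairs the library with 17992 held more Mmp13 and more Mmp10. For Mmp13 these were 7.42 against 0.489 and 35.0 against 5.59 CPM in 1027B, 20.9 against 0.794 and 3591 against 39.0 CPM in 1027D, and 28.8 against 2.60 and 37.2 against 2.79 CPM in 1267B, 4-OHT before vehicle in each line. Over 14757 genes, 8.14% were higher and 5.65% lower with 17992 in every pair. Mmp15, Timp1, Timp2 and Timp3 showed no such order, at 2, 3, 3 and 3 pairs higher. Mmp9 was higher with 17992 in 4 pairs and lower in none, Mmp3 higher in 5 and lower in none, and Mmp14 higher in 2 and lower in 3. Line 1526C and the Foxa1-floxed lines were under 19659 alone, and line 1292B under 17699 alone. Foxa1-floxed and double-floxed libraries thus share no title number. Differences in level between those genotypes, or between lines 1267B and 1526C, cannot be told apart from the number. No source used here says what the number stands for, and its part in these levels was not tested. With the number added to the block, the log2 change of Mmp13 in double-floxed organoids was -3.57 (adjusted p = 0.144), that of Mmp10 was -1.17 (0.663) and that of Mmp15 was -3.49 (0.00507).

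In the single-floxed lines Mmp13 exceeded 10 CPM only in replicate 2 of Foxa2-floxed organoids, and Mmp10 stayed at or below 1.51 CPM. Mmp13 was 2.60, 28.8, 1.19 and 2.74 CPM in Foxa2-floxed 4-OHT libraries, against 2.79, 37.2, 0.984 and 2.44 CPM with vehicle. Mmp10 was 0.306, 0.902, 0.129 and 0.438 CPM in Foxa2-floxed 4-OHT libraries, against 0.310, 1.51, 0 and 0.287 CPM with vehicle. The treatments lay close together within each Foxa2-floxed line, and neither gene was called. Mmp13 was 5.51, 5.42, 0.923, 2.21, 6.95 and 2.91 CPM in Foxa1-floxed 4-OHT libraries, against 2.43, 5.28, 1.45, 1.85, 2.07 and 0.785 CPM with vehicle, with overlap. Mmp10 was 0.786, 0.459, 0.0738, 0.0725, 1.51 and 0.917 CPM in Foxa1-floxed 4-OHT libraries, against 0.0374, 0.0367, 0, 0, 0.597 and 0.171 CPM with vehicle. Within each of the 3 lines both 4-OHT libraries were above both vehicle libraries. The fitted log2 change of 2.45 ± 0.68 (SE, adjusted p = 0.177) was not called by edgeR, and was called by DESeq2 (adjusted p = 0.0346) and without the filter on low counts (2.19e-05). These levels rest on 119 counts with 4-OHT and 22 with vehicle over 6 libraries each.

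In the hairpin libraries of line 1027B, Mmp13 was 0.812 and 1.39 CPM with shNKX2-1 and 4-OHT, and 3.37 and 0.438 CPM with shNKX2-1 and vehicle. It was 0 and 0.0645 CPM with shScramble and 4-OHT, and 0.413 and 0.405 CPM with shScramble and vehicle. Under each treatment both shNKX2-1 libraries lay above both shScramble libraries, a pattern found in 22% of genes with 4-OHT and 23.9% with vehicle. Without overlap in either direction were 43.4% of genes with 4-OHT. The log2 difference was 4.79 ± 1.40 with 4-OHT (SE, adjusted p = 0.172) and 2.18 ± 0.95 with vehicle (adjusted p = 0.643). Leaving out 1 library, which leaves a group of 1, gave log2 differences of 3.90 to 7.03 with 4-OHT and 0.09 to 3.01 with vehicle. The lowest with vehicle came without shNKX2-1 replicate 1. The shScramble 4-OHT libraries held 1 count in all, so the size of the difference under 4-OHT depends on the prior count of the fit.

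Mmp9 (ENSMUSG00000017737, chromosome 2, 164940780 to 164955850, plus strand) and Mmp7 (ENSMUSG00000018623, chromosome 9, 7692090 to 7699585, plus strand) were near the limit of detection. Mmp9 held 7 counts in Foxa1-floxed 4-OHT and 0 in Foxa1-floxed vehicle libraries, and 13 counts in Foxa2-floxed 4-OHT and 1 in Foxa2-floxed vehicle libraries. In double-floxed libraries it had 0, 0.149, 0.282, 0 and 0.489 CPM with 4-OHT, against 0, 0, 0, 0.212 and 2.08 CPM with vehicle, and was not called (adjusted p = 0.713). Mmp7 had 0.051 and 0.280 CPM in the 4-OHT and 0.413 and 0.294 CPM in the vehicle libraries of line 1267B, and 0 in both treatments of line 1526C. No difference in Mmp7 was detectable at this depth. Neutrophils are a usual source of Mmp9. The 7 neutrophil markers summed to 1.47 to 17.8 CPM in double-floxed 4-OHT and 0.316 to 22.2 CPM in double-floxed vehicle libraries, with Csf3r at 0 in both, and their part in the Mmp9 levels was not tested.

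Timp2 (ENSMUSG00000017466, chromosome 11, 118301069 to 118355740, minus strand) encodes an inhibitor that also docks pro-MMP2 on MMP14. Double-floxed 4-OHT libraries had 285, 381, 219, 284 and 345 CPM, against 106, 161, 175, 149 and 138 CPM in vehicle libraries. Every 4-OHT library lay above every vehicle library. The log2 change was 1.04 ± 0.18 (SE, adjusted p = 0.0210), a 2.06-fold rise. The call was lost when 1 of the libraries of line 1027D (replicates 2 and 5, either treatment) or vehicle replicate 1 was left out (adjusted p = 0.0518 to 0.0739), without line 1027B (0.166) or 1027D (0.309), and with counts summed per line (0.107).

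The fitted change of Timp2 with 4-OHT was positive in the other organoids without a call. In Foxa1-floxed organoids it had 247, 192, 324, 280, 239 and 234 CPM with 4-OHT, against 134, 124, 238, 297, 165 and 183 CPM with vehicle (log2 change 0.46 ± 0.16 SE, adjusted p = 0.302). In Foxa2-floxed organoids it had 228, 472, 216 and 218 CPM with 4-OHT, against 229, 395, 168 and 158 CPM with vehicle (0.29 ± 0.20 SE, adjusted p = 0.597). In the hairpin libraries it had 422 and 253 CPM with shNKX2-1 and 4-OHT, against 215 and 113 CPM with shNKX2-1 and vehicle (1.04 ± 0.37 SE, adjusted p = 0.139). With shScramble it had 331 and 252 CPM after 4-OHT, against 206 and 165 CPM with vehicle (0.65 ± 0.37 SE, adjusted p = 0.482). The Timp2 effect did not pass as different between double-floxed and Foxa1-floxed organoids (log2 difference 0.41 ± 0.27 SE, adjusted p = 0.466) or between double-floxed and Foxa2-floxed organoids (0.54 ± 0.30 SE, adjusted p = 0.670).

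Timp1 (ENSMUSG00000001131, X chromosome, 20870166 to 20874735, plus strand) encodes a secreted inhibitor that also binds proMMP9, and lies within an intron of Syn1 on the opposite strand. It had 3.43, 7.59, 14.2, 8.67 and 5.76 CPM in double-floxed 4-OHT libraries, against 4.90, 3.59, 5.94, 8 and 5.11 CPM with vehicle (log2 change 0.46 ± 0.35 SE, adjusted p = 0.532). Foxa1-floxed organoids had 5.33, 2.60, 1.07, 1.34, 1.64 and 2.42 CPM with 4-OHT, against 1.23, 1.83, 1.09, 0.908, 1.27 and 0.990 CPM with vehicle (0.84 ± 0.28 SE, adjusted p = 0.276). Foxa2-floxed organoids had 3.72, 2.80, 3.31 and 3.21 CPM with 4-OHT, against 3.56, 1.77, 1.15 and 1.15 CPM with vehicle (0.89 ± 0.34 SE, adjusted p = 0.196). The groups overlapped in each genotype. In shNKX2-1 organoids it had 4.26 and 5.15 CPM with 4-OHT, against 1.76 and 2.13 CPM with vehicle (1.27 ± 0.41 SE, adjusted p = 0.113), and in shScramble organoids 3.73 and 2.52 CPM with 4-OHT, against 1.59 and 2.16 CPM with vehicle (0.74 ± 0.41 SE, adjusted p = 0.473). The fitted change was thus positive in all 5 comparisons of 4-OHT with vehicle and called in none.

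Timp3 (ENSMUSG00000020044, chromosome 10, 86300372 to 86349506, plus strand) encodes the matrix-bound inhibitor, which in addition blocks several ADAM proteases. It shares 1733 exon bases with Syn3 on the opposite strand, which totalled 362 counts against 312546 for Timp3. In double-floxed libraries it had 895, 121, 714, 767 and 170 CPM with 4-OHT, against 480, 366, 482, 234 and 47.2 CPM with vehicle (log2 change 0.40 ± 0.55 SE, adjusted p = 0.760). Its lowest vehicle level was in the library with the highest Mmp13. In line 1526C it had 830 and 656 CPM with 4-OHT and 1130 and 741 CPM with vehicle, and in line 1267B 74.3 and 147 CPM with 4-OHT and 112 and 171 CPM with vehicle. Line thus separated the Foxa2-floxed libraries and treatment did not. These lines also differ in the number that begins their library titles, so line and title number cannot be told apart here. Foxa1-floxed libraries held 74.0 to 178 CPM with 4-OHT and 44.6 to 221 CPM with vehicle. Hairpin libraries held 837 and 560 CPM with shNKX2-1 and 4-OHT, 600 and 310 CPM with shNKX2-1 and vehicle, 741 and 472 CPM with shScramble and 4-OHT, and 853 and 469 CPM with shScramble and vehicle.

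**Figure D4:**
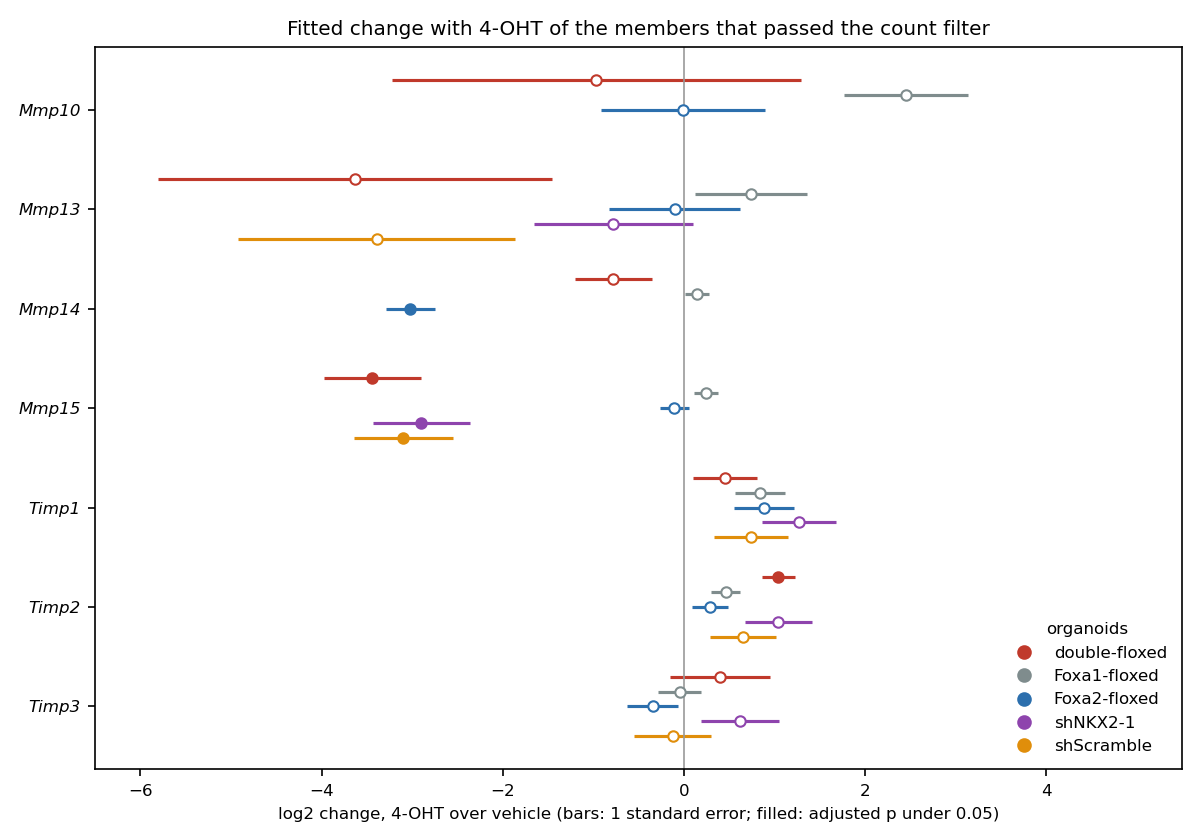
Points give the fitted log2 change, 4-OHT over vehicle, of each member except Mmp9 that passed the count filter in that table. Bars are 1 standard error as derived from the test's F value, and filled symbols mark an adjusted p under 0.05. Mmp15 is filled in double-floxed, shNKX2-1 and shScramble organoids, Mmp14 in Foxa2-floxed and Timp2 in double-floxed organoids.

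Ordered by group mean, Mmp15 stood highest in Foxa1-floxed 4-OHT (197 ± 58.1 CPM, SD, n = 6), Foxa2-floxed vehicle (189 ± 138, n = 4), Foxa1-floxed vehicle (166 ± 52.2, n = 6), Foxa2-floxed 4-OHT (164 ± 106, n = 4) and shNKX2-1 vehicle libraries (140 ± 42.8, n = 2). It followed in shScramble vehicle (66.8 ± 2.73, n = 2) and double-floxed vehicle (56.0 ± 33.2, n = 5) and stood lowest in shNKX2-1 4-OHT (18.6 ± 15, n = 2), shScramble 4-OHT (7.78 ± 0.774, n = 2) and double-floxed 4-OHT libraries (6.07 ± 4.81, n = 5). Among neighbours in that order the libraries were apart only between shNKX2-1 vehicle and shScramble vehicle. Timp2 ranged over group means from 338 ± 119 CPM in shNKX2-1 4-OHT (n = 2) to 146 ± 26.2 CPM in double-floxed vehicle libraries (n = 5), with all neighbours overlapping and the 5 4-OHT groups above the 5 vehicle groups. For Mmp14 the libraries were apart only between Foxa1-floxed vehicle (77.4 ± 48.0 CPM, n = 6) and the next group, double-floxed vehicle (7.19 ± 10.6 CPM, n = 5). Levels of the 3 tables are on separate scales, so this order is a description.

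Across the 38 libraries, after centring on each line within each experiment, Mmp15 and Timp2 correlated at r = -0.66 and Mmp13 and Mmp15 at r = 0.42. The other 8 pairs of the 5 members that passed in all tables had r between -0.39 and 0.43. The genes most like Mmp15 among 13435 were Ecscr (r = 0.913), D630003M21Rik (0.906) and Plxnd1 (0.896), over 38 libraries. Those most like Timp2 were Csf1 (0.879), 1600014C10Rik (0.863) and Serpinb9b (0.862), and those most like Mmp13 were Ifnar1 (0.841), Ldhd (0.834) and Spsb1 (0.832). For Timp1 they were Samd12 (0.810), Prl2c2 (0.807) and Fxyd5 (0.806), and for Timp3 Tmem41a (0.786), Ppef2 (0.717) and Kank2 (0.716). These libraries share lines and treatments, and the values are descriptions without a test.

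Among the other 19 metalloproteinase and inhibitor genes, 5 passed the count filter in the double-floxed and the single-floxed table and 4 in the hairpin table. Mmp24, a further membrane-type enzyme, was the 1 called in any comparison. It had 1.73, 1.21, 1.54 and 2.37 CPM in Foxa2-floxed 4-OHT libraries, against 0.258, 0.421, 0.205 and 0.0718 CPM with vehicle (log2 change 2.87 ± 0.54 SE, adjusted p = 0.00756). All 4 of its 4-OHT libraries lay above its vehicle libraries, and the call was lost without line 1526C (0.479) or with counts summed per line (0.113). The list's median log2 change was 1.25 in double-floxed, 0.16 in Foxa1-floxed and -0.09 in Foxa2-floxed organoids.

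The plasminogen system, which can activate several pro-metalloproteinases, held 5 tested genes of 6 in every table. Plau, which encodes the urokinase plasminogen activator, was called higher with 4-OHT in 4 of the 5 comparisons. It had 143, 491, 709, 310 and 388 CPM in double-floxed 4-OHT libraries, against 11.4, 36.5, 197, 68.5 and 43.3 CPM with vehicle (log2 change 2.75 ± 0.51 SE, adjusted p = 0.0236). The groups overlapped only through line 1292B, whose vehicle library held 197 CPM. It had 106, 122, 155 and 219 CPM in Foxa2-floxed 4-OHT libraries, against 51.1, 47.9, 56.1 and 57.1 CPM with vehicle, without overlap (1.46 ± 0.21 SE, adjusted p = 0.00108). It was also called higher in shNKX2-1 (1.68, adjusted p = 0.0279) and shScramble organoids (1.99, adjusted p = 0.0174), and not in Foxa1-floxed organoids, where it had 29.4 to 62.0 CPM with 4-OHT and 26.3 to 86.0 CPM with vehicle. The double-floxed effect on Plau exceeded the Foxa1-floxed effect by 2.53 ± 0.44 (SE, adjusted p = 0.0343), a call lost without line 1027B or any 1 Foxa1-floxed line (0.0795 to 0.105). The rise of Plau was not called in double-floxed organoids without any 1 line (0.0501 to 0.332), without either library of replicate 2, 3 or 5 (0.0536 to 0.0789) or without the block for line (0.151). In Foxa2-floxed organoids it was not called without line 1526C (0.21), with counts summed per line (0.102) or without the block for line (0.208). It was not called in shNKX2-1 organoids without either vehicle library (0.0898 and 0.22), nor in shScramble organoids without any 1 library (0.0509 to 0.17). Serpinb2, which encodes an inhibitor of urokinase, had 4.71 and 2.45 CPM with shScramble and 4-OHT, against 0.943 and 0.675 CPM with shScramble and vehicle (2.13, adjusted p = 0.0388). That call was lost without any 1 of the 4 libraries. In the floxed organoids the log2 change of Serpinb2 was 2.14 (double-floxed, adjusted p = 0.224), 1.12 (Foxa1-floxed, 0.291) and 1.88 (Foxa2-floxed, 0.0621), without a call.

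Among 12 ADAM and ADAMTS relatives, Adamts9, a secreted protease that cuts versican and aggrecan, fell in the same 4 comparisons. It had 15, 0.0992, 0.901, 3.58 and 1.73 CPM in double-floxed 4-OHT libraries, against 81.7, 108, 29.9, 84.0 and 160 CPM with vehicle, without overlap (log2 change -5.04 ± 0.97 SE, adjusted p = 0.0286). In Foxa2-floxed organoids it had 0.663, 3.36, 30.4 and 32.4 CPM with 4-OHT, against 6.97, 11.6, 122 and 119 CPM with vehicle (-2.03, adjusted p = 0.00251). Its change was -2.98 in shNKX2-1 (adjusted p = 0.00837) and -2.40 in shScramble organoids (0.0202). The call was kept under all 8 alternatives in shNKX2-1 organoids. It was lost in double-floxed organoids without any 1 line (0.0589 to 0.2) or without vehicle replicate 2 or 3 or 4-OHT replicate 3 or 5 (0.064 to 0.0888). There it was also lost with counts summed per line (0.051) and without the block for line (0.0879). In Foxa2-floxed organoids it was lost without line 1526C (0.196), with that genotype fitted alone (0.0596) and without the block for line, and in shScramble organoids without any 1 library. Adam12, a metalloprotease of the cell surface, rose in Foxa2-floxed organoids (1.79, adjusted p = 0.0432). This call was lost without line 1526C or any 1 of 6 libraries (0.0902 to 0.209) and with counts summed per line (0.137). Adam19 was fitted lower in double-floxed (-4.54, adjusted p = 0.105) and Foxa2-floxed organoids (-0.94, 0.637) and higher in Foxa1-floxed organoids (0.32, 0.889), without a call. Adam19 had 0 counts in both shNKX2-1 4-OHT libraries, against 1.24 and 8.07 CPM with shNKX2-1 and vehicle, at least 41.9-fold lower if the group is set at a floor of 3 counts (adjusted p = 0.0258, or 0.0896 without vehicle replicate 2 and 0.0612 without 4-OHT replicate 2). Adam8, a protease best known from leukocytes, was 2.80 higher on the log2 scale in shNKX2-1 4-OHT than in shScramble 4-OHT libraries (adjusted p = 0.0426), a call lost without either shScramble library or shNKX2-1 replicate 2 (0.056 to 0.347) and with only the 2 groups fitted (0.108).

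**Figure D5:**
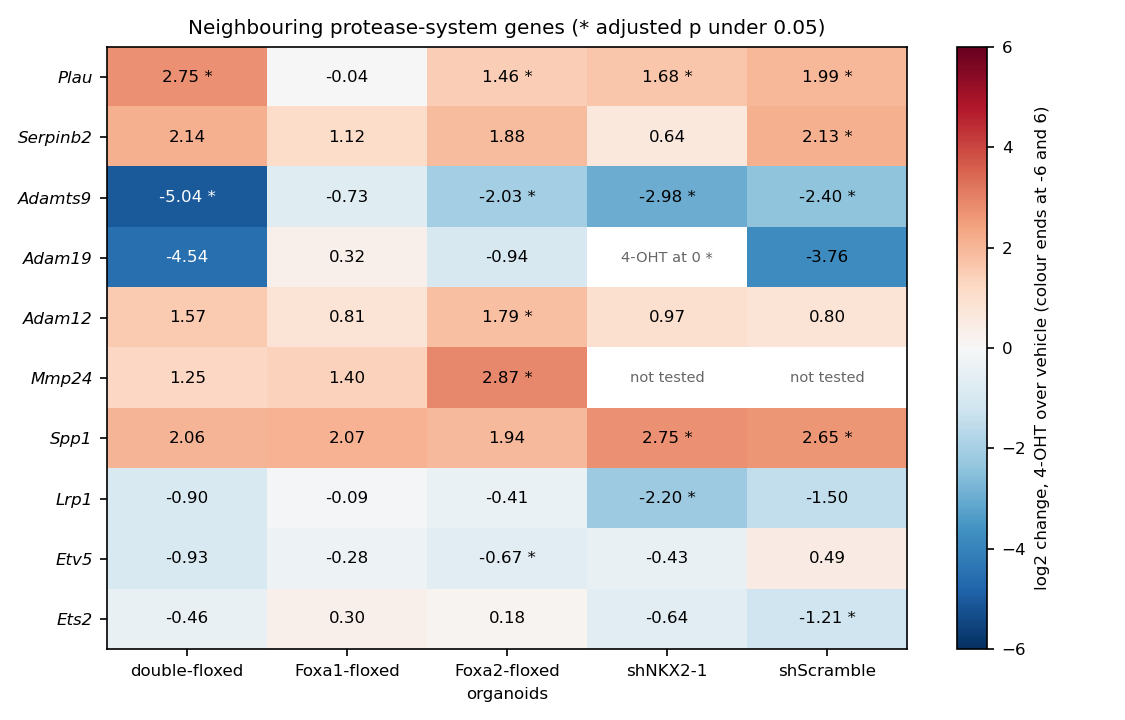
Cells give the fitted log2 change, 4-OHT over vehicle, of 10 further protease-system genes in 5 sets of organoids, with an asterisk where the adjusted p was under 0.05. Plau (higher) and Adamts9 (lower) carry an asterisk in every column but Foxa1-floxed, and Adam19 in shNKX2-1 organoids is given without a value because its 4-OHT libraries held 0 counts.

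Of 10 genes for proteins that dock, activate or are cut by metalloproteinases, Spp1 was called most often. Spp1, which encodes osteopontin, a substrate of several of these enzymes, had 1161 and 1806 CPM with shNKX2-1 and 4-OHT, against 258 and 183 CPM with shNKX2-1 and vehicle (log2 change 2.75, adjusted p = 0.00673). With shScramble it had 191 and 346 CPM after 4-OHT, against 36.6 and 48.6 CPM with vehicle (2.65, adjusted p = 0.00819). In the floxed organoids the log2 change of Spp1 was 2.06 (double-floxed, adjusted p = 0.0969), 2.07 (Foxa1-floxed, 0.107) and 1.94 (Foxa2-floxed, 0.0649), without a call. Between hairpins under 4-OHT it was higher by 2.47 in shNKX2-1 libraries (adjusted p = 0.0247). Lcn2 had 2995 and 1015 CPM in shNKX2-1 4-OHT libraries, against 259 and 122 CPM in shScramble 4-OHT libraries (log2 difference 3.40, adjusted p = 0.0298). Both of these calls between hairpins were lost without either shScramble 4-OHT library (adjusted p = 0.119 to 0.298) and with only the 2 groups fitted (0.168 for Spp1, 0.216 for Lcn2). The 4-OHT call of Spp1 was lost in shNKX2-1 organoids without vehicle replicate 2 (0.0678) and in shScramble organoids without either vehicle library or 4-OHT replicate 2 (0.0628 to 0.0831). Lrp1, a receptor that clears protease and inhibitor complexes, had 32.8 and 9.41 CPM with shNKX2-1 and 4-OHT, against 116 and 78.6 CPM with shNKX2-1 and vehicle (-2.20, adjusted p = 0.0420), a call lost without either vehicle library (0.12 and 0.221). Mitochondrial transcripts took 11.7% of the counts of shNKX2-1 4-OHT replicate 2 and 1.09% to 4.30% elsewhere, and the part of this in the shNKX2-1 values was not tested.

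Factors of the AP-1, ETS and RUNX families bind metalloproteinase promoters. Of the 14 such genes tested in every table, none was called in double-floxed organoids (3.90% of all genes), Foxa1-floxed organoids (0.0118%) or shNKX2-1 organoids (6.35%), and 1 each in Foxa2-floxed (3.43%) and shScramble organoids (4.33%), so the counts do not set the list apart from genes in general. Etv5 fell in Foxa2-floxed organoids (log2 change -0.67, adjusted p = 0.0464), a call lost without line 1526C, without any 1 of 6 libraries (adjusted p = 0.114 to 0.155), with counts summed per line or without the block. Ets2 fell in shScramble organoids with 4-OHT (-1.21, adjusted p = 0.0353), a call lost without any 1 of the 4 libraries (0.059 to 0.398).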

How the data were processed

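Raw counts per gene were used from 3 deposited tables (double-floxed, single-floxed and hairpin), whole numbers that were not normalised. Per the submitters' processing notes, GRCm38, STAR 2.7.6a, featureCounts 1.5.1 and DESeq2 were used, with no role or order stated. Per the labels, RNA was purified with a PureLink kit and made into libraries with NEBNext Ultra II Directional. No source used here gives the strand setting, the treatment of multiply mapped reads or the time of RNA collection. Gene symbols were matched for 99.5% of the double-floxed table's IDs and 99.4% of the IDs of each other table.

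Counts were filtered with filterByExpr, scaled by TMM within each table and tested with edgeR 4.0.16 (quasi-likelihood, R 4.3.3, limma 3.58.1), with Benjamini-Hochberg adjustment over all genes tested in a comparison and a threshold of 0.05. The 4-OHT comparisons of the floxed organoids had the organoid line as a block, since libraries of a line share a tumour. Foxa1-floxed and Foxa2-floxed libraries were fitted together, with 1 shared estimate of the spread. Deviations from the group means correlated at r = 0.155 to 0.754 (double-floxed), 0.464 to 0.861 (Foxa1-floxed) and 0.509 to 0.836 (Foxa2-floxed) between 4-OHT and vehicle libraries of the same line. Between lines they were negative, which centring on the means of so few lines largely forces. Differences between genotypes were tested on counts summed per line. The hairpin table was fitted with 4 group means. Levels in CPM are TMM-scaled, plots add 0.1, and the floor for a count of 0 is 3 counts, which covers counting error only. No libraries were found to agree within sampling noise. The code was checked on simulated counts.

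The members and gene lists were chosen with earlier results of these data known. Named besides the 9 members are the targeted genes, up to 4 called genes of each list per comparison by adjusted p, and the 3 genes most like each member in all tables. Mmp3, Cd14 and the values of single libraries were singled out after their values were seen, as were genes given to show a level without a call. Alternatives were DESeq2 1.42.0, no filter, other blocks, counts summed or not, and leaving out each library or line. Promoter sequences are RefSeq's for GRCm38.p6, and 8 of the 9 members matched.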

Additional observations from a re-analysis of the deposited data

Results flagged for a closer look

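In 15 of 52 groups of 4 or more libraries, 1 library stood apart from the rest by Dixon's criterion. Chance meets it in about 1 in 20 groups of independent, normally distributed values. CPM values with many zeros, from libraries shared by the genes, are not of that kind, so the rates cannot be compared directly. Double-floxed vehicle replicate 5 accounted for Mmp13 at 3591 CPM, Mmp10 at 181 CPM and Mmp9 at 2.08 CPM. In that library 62 of 15198 genes were at least 10-fold above the next library, a count that was 154 and 119 for the 4-OHT and vehicle libraries of line 1292B. Line 1292B gave Mmp14 its highest double-floxed levels, 28.3 CPM with 4-OHT and 25.5 CPM with vehicle. Replicate 2 of the Foxa2-floxed line 1267B stood apart for Mmp13, at 28.8 CPM with 4-OHT and 37.2 CPM with vehicle, and for Timp2 at 472 CPM with 4-OHT. In Foxa1-floxed organoids, 4-OHT replicate 1 stood apart for Timp1 at 5.33 CPM, vehicle replicate 2 for Mmp13 at 5.28 CPM and vehicle replicate 5 for Mmp10 at 0.597 CPM. The others rest on single counts or nearly so, with Mmp7 at 0.0563 CPM in double-floxed 4-OHT replicate 3, 0.0527 CPM in double-floxed vehicle replicate 1 and 0.0369 CPM in Foxa1-floxed 4-OHT replicate 3, and Mmp9 at 0.0359 CPM in Foxa2-floxed vehicle replicate 4.

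The 4-OHT effect on Mmp15 differed between genotypes, by a log2 difference of -3.62 between double-floxed and Foxa1-floxed organoids (adjusted p = 0.00393) and of -3.26 between double-floxed and Foxa2-floxed organoids (adjusted p = 0.0346) in edgeR's quasi-likelihood test.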

How the results depend on the processing

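Of 474 values of single members under the alternatives, 425 kept direction and side of the threshold, 23 lost the call, 17 gained one and 9 changed sign. Members called in double-floxed organoids numbered 2, and fell to 1 with no replicate block for line (Timp2), with counts summed per line or without line 1027B (Mmp15), and 0 without line 1027D. Without 1 library the number was 1 to 2. Foxa1-floxed organoids had 0, against 1 by DESeq2 (Mmp10) and 2 with no filter (Mmp10 and Timp2), and 0 to 0 without 1 library. Foxa2-floxed organoids had 1, against 0 with no replicate block or without line 1526C, 2 without line 1267B (Mmp14 and Timp1), and 1 to 2 without 1 library. For double-floxed minus Foxa1-floxed effects, 1 became 0 with no replicate block. For double-floxed minus Foxa2-floxed effects, 1 became 2 by DESeq2 or with libraries unsummed, and 0 with no replicate block or without line 1267B or 1526C. For Foxa2-floxed minus Foxa1-floxed effects, 0 became 1 by DESeq2 or with libraries unsummed. In shNKX2-1 organoids 1 became 2 with no filter, 0 with only the groups compared fitted (Mmp15 adjusted p = 0.0903), and 0 to 2 without 1 library. In shScramble organoids 1 became 0 to 0 without 1 library. Between hairpins with vehicle 0 became 1 with no filter, and with 4-OHT 0 became 2 with no filter.

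Changes of sign, none of them called, were Mmp10 in double-floxed organoids (1.58 without line 1027D and -2.93 to 1.41 without 1 library, with 0.21 and 0.09 without 4-OHT replicates 2 and 5), Mmp14 (0.15) and Timp3 (-0.16) there without line 1027B, Mmp15 in Foxa2-floxed organoids without line 1267B (0.064), and Mmp15 between the hairpins' effects (-1.03 to 0.86 without 1 library). Without 1 library, Mmp15 in double-floxed organoids ran from -3.70 to -3.08, Timp2 from 0.94 to 1.21 and Mmp13 from -5.63 to -1.51, and Mmp14 in Foxa2-floxed organoids from -3.23 to -2.85. The cause of these shifts was not tested.

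Over all genes, 592 were called in double-floxed organoids, against 1892 by DESeq2, 2391 with no filter, 82 with no replicate block, 1783 with line and title number as the block, 0 without line 1027D and 228 to 575 without 1 library. Foxa2-floxed organoids had 580, against 988 by DESeq2, 1816 with no filter, 5 with no replicate block, 914 with line and title number as the block and 16 without line 1526C. The number was 73 with counts summed per line and 133 with that genotype fitted alone. Foxa1-floxed organoids had 2, against 246 by DESeq2 and 1141 with no filter. In shNKX2-1 organoids 919 became 1786 by DESeq2, 2455 with no filter, 245 with only the groups compared fitted and 258 to 6946 without 1 library. In shScramble organoids 627 became 1092, 1372, 1602 and 138 to 243 under those settings in that order. Between hairpins with vehicle 34 became 284 by DESeq2 and 461 with no filter, and with 4-OHT 228 became 704 and 1058, and 0 with only the groups compared fitted. For double-floxed minus Foxa1-floxed effects DESeq2 called 1443, against 293, and for double-floxed minus Foxa2-floxed effects 355, against 37, and both fell to 0 with no replicate block. For Foxa2-floxed minus Foxa1-floxed effects DESeq2 called 19, against 0. No paired analysis was made for the hairpin groups because the labels give those libraries no replicate number that could pair them. The replicate numbers used here for hairpin libraries only name them. Counts of Mmp7, Mmp9 and Mmp10 were too few for a firm difference in most groups.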

Other observations

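Line 1027B was measured as double-floxed organoids and again with the scrambled hairpin, on scales set separately for each table. Mmp15 had 3.77 and 0.626 CPM with 4-OHT against 53.9 and 26.2 CPM with vehicle without a hairpin, and 8.32 and 7.23 CPM with 4-OHT against 68.7 and 64.8 CPM with vehicle with shScramble. Timp2 was higher with 4-OHT in both sets, but was not called with shScramble, where 61.3% of genes had non-overlapping libraries. Mmp14 was 4.81 to 5.43 CPM in the vehicle libraries without a hairpin and at most 0.0675 CPM in those with shScramble.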
